A study of Mus musculus with 12 samples.

Results

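The comparison set all 6 liver tumour libraries against all 6 non-tumour liver libraries and asked which genes differed between the tissues in the same way in both genotypes. The libraries are all 12 of the series, chosen by their tissue label, and came from livers of C57BL/6 mice aged 15 months. One genotype is labelled Atg7KO and lacks Atg7, and the other, labelled Atg7Hmgb1DKO and written DKO here, lacks both Atg7 and Hmgb1. Each genotype gave 3 tumour and 3 non-tumour libraries, so that every animal group carried the Atg7 deletion and no group had an intact Atg7 gene. The promoter or Cre line behind the deletions, whether a tumour library is 1 nodule or a pool, and whether libraries came from separate animals are not given in the sources used here. The p-values therefore measure the spread between these libraries, which may be technical. The tissue term of a model with genotype and tissue, fitted with edgeR to the raw counts of 14443 genes, is the tumour effect described below as a log2 fold change, positive where tumours were higher.

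Atg7 is an enzyme that conjugates ubiquitin-like proteins to build autophagosomes, and mouse livers without it accumulate the adaptor p62 (Sqstm1), activate the antioxidant factor NRF2 and develop tumours late in life. Hmgb1 is a chromatin protein that is also released from stressed cells as a danger signal. Several liver programmes are commonly read in such tumours. Cells short of amino acids translate ATF4, which switches on enzymes that make serine and asparagine and transporters that import amino acids. Hepatocytes around the central vein hold a gene set driven by Wnt signals from endothelial cells. Growth hormone acts through STAT5 in hepatocytes to induce Igf1 and the feedback inhibitor Socs2.

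The libraries held between 18292190 and 32354958 reads assigned to genes. The first principal component of log2 CPM (counts scaled to library size, with TMM factors) took 24.6% of the variance, and on it the 6 tumours lay between 1.38 and 67.1 and the 6 non-tumour libraries between -57.7 and -1.47, with no overlap. DKO tumour 1 stood apart on the second component, at 86.2. Reads of Y-linked genes numbered 0 to 2 in the Atg7KO libraries and 1898 to 4639 in the DKO libraries, so genotype and sex cannot be told apart, while each tissue was compared within a genotype. Of the deleted genes, Atg7 (NM_001253718, mm10 chr6:114643097-114860614) had 11.6 ± 3.51 CPM in non-tumour liver and 6.26 ± 2.82 in tumours (SD, n = 6 each). Hmgb1 (NM_010439, mm10 chr5:149047227-149053037) stood at 118 ± 12.3 and 115 ± 20.4 CPM in Atg7KO non-tumour liver and tumours, and at 101 ± 17.4 and 79.0 ± 16.3 in DKO (SD, n = 3 each). A count over all exons also takes in those outside a deletion and RNA from cells that were not deleted, so it does not check these labels. Neither gene passed the tissue test, with log2 fold changes of -0.88 (adjusted p = 0.142) for Atg7 and -0.19 (adjusted p = 0.534) for Hmgb1. Albumin and the other hepatocyte markers were present in every library, with 14 of 14 markers measured and summed levels of 76741 to 207721 CPM in non-tumour liver and 47503 to 122179 CPM in tumours.

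Of 14443 genes, 5 (0.0346%) passed edgeR's test at an adjusted p under 0.05. Psat1, Asns and Myo5c rose in tumours, which is 3 genes or 0.0208%, and Socs2 and Cxcl12 fell, which is 2 genes or 0.0138%. The number at an unadjusted p under 0.05 was 2734 genes (18.9%), of which 1379 were higher (9.55%) and 1355 lower (9.38%) in tumours. At an adjusted p under 0.1, a threshold chosen after seeing the data, 258 genes were higher (1.79%) and 223 lower (1.54%). DESeq2, run on the same counts and model, called 512 genes higher (3.54%) and 521 lower (3.61%) at an adjusted p under 0.05, 1033 in all (7.15%) with all 5 edgeR genes among them. The DESeq2 counts came to 255 and 235 without DKO non-tumour 1 and to 277 and 233 without Atg7KO non-tumour 2. Because the tools differ so far, genes are written as having risen or fallen only where edgeR passed them, and DESeq2 calls are named as such. Counts of called list members below are to be read beside these shares over all genes tested.

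Without regard to any test, 277 genes (1.92%) had all tumour libraries above all non-tumour libraries within each genotype, and 263 (1.82%) had them all below. A further 428 genes (2.96%) were separate in both genotypes but in opposite directions, and the other 13475 (93.3%) overlapped in at least 1 genotype. With the genotypes pooled, 130 genes (0.9%) had all 6 tumours above all 6 non-tumour libraries, 109 (0.755%) had them below, and 14204 (98.3%) overlapped; "no overlap" below refers to this pooled comparison. Over the genes tested, the log2 fold changes in Atg7KO and in DKO correlated at r = 0.326 and rho = 0.186, a description across genes, which are not independent, and 52.9% of genes had the same sign. Within Atg7KO alone edgeR called 0 genes (2423 at an unadjusted p under 0.05, 16.8%), and within DKO alone 0 genes (3251, 22.5%). The test of a different tumour effect in the genotypes, an interaction term, also called 0 genes by edgeR, with 2582 at an unadjusted p under 0.05 (17.9%) and a lowest adjusted p of 0.175. Of the 1033 DESeq2 calls, all had the same sign in both genotypes, as a term averaged over both favours, and 414 were separate in both.

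**Figure D1:**
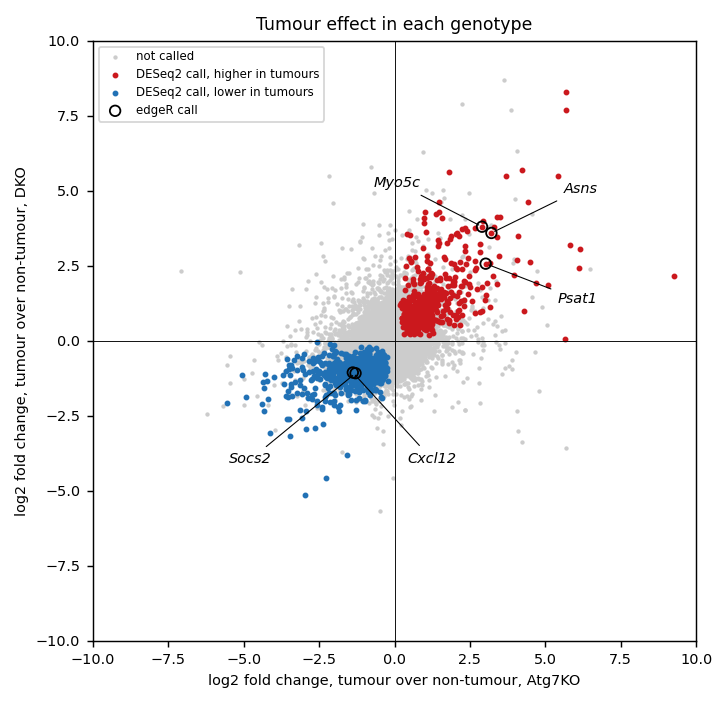
Each point is 1 of the 14443 genes tested, placed by its log2 fold change, tumour over non-tumour, in Atg7KO (horizontal axis) and in DKO (vertical axis). The 512 DESeq2 calls higher in tumours are red, the 521 lower are blue, and the 5 edgeR calls are circled and named; Psat1, Asns and Myo5c lie in the upper right, Socs2 and Cxcl12 in the lower left.

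Both amino acid enzymes passed the tissue test, with higher levels in the tumours of each genotype. Psat1 encodes phosphoserine aminotransferase, the middle enzyme of serine synthesis, and Asns encodes asparagine synthetase. Both are known targets of ATF4, which binds composite C/EBP-ATF sites of the form TGATGNAA. The stretch of 250 bases before the annotated start of each gene is shown with matches to TGATGNAA on either strand in capitals, together with that of Slc7a11, the cystine importer, whose promoter holds more than a single match. The sequences are RefSeq's on build GRCm38.p6, read 5′ to 3′ on the minus strand, at chr19:15925060-15925309 for Psat1, chr6:7693210-7693459 for Asns and chr3:50443614-50443863 for Slc7a11.
Psat1: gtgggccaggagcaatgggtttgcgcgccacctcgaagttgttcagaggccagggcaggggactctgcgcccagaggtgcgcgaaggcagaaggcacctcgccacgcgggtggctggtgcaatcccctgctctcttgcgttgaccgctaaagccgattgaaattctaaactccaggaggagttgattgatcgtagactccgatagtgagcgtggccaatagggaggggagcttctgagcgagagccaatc
Asns: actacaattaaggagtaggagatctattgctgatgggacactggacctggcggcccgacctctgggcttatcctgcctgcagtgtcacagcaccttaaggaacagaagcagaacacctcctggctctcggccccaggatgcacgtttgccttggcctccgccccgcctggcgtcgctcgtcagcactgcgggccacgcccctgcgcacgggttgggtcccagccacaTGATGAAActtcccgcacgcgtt
Slc7a11: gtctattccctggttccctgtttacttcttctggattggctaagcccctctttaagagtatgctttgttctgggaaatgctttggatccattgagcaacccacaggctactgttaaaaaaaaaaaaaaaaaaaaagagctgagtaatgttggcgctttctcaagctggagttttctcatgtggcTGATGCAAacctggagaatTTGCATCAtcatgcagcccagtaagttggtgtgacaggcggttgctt
Asns held 1 match, 23 bases before its start. Slc7a11 held 2 matches, 66 and 47 bases before its start, on opposite strands of the same window. Psat1 held 0, which says only that these letters are not in this window. Of all 32817 distinct promoter windows, 3.45% held a match. Counted by gene over all its windows, 3.91% of 27025 genes held a match. Of the 25 genes of the ATF4 and endoplasmic reticulum (ER) stress list with a promoter sequence, 7 did (Asns, Atf3, Chac1, Fgf21, Herpud1, Nupr1 and Slc7a11). The list includes known ATF4 targets, so this share is not a result of these data. The annotated start of Asns lies 27 bases from the start of its gene model in the count table.

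Psat1 (NM_177420, mm10 chr19:15905123-15925059) stood at 7.71, 2.74 and 6.94 CPM in the 3 Atg7KO non-tumour libraries and at 48.2, 55.2 and 38.3 in the Atg7KO tumours. In DKO its levels were 3.61, 6.35 and 6.89 CPM in non-tumour liver and 45.6, 15.0 and 39.1 in tumours. All 6 tumours lay above all 6 non-tumour libraries, the closest being DKO tumour 2. The mean rose from 5.71 ± 2.03 to 40.2 ± 13.8 CPM (SD, n = 6), a log2 fold change of 2.80 (SE 0.33, adjusted p = 0.0167 by edgeR). It was 3.02 in Atg7KO and 2.57 in DKO, and the difference between the genotypes did not pass after adjustment (adjusted p = 0.742 by edgeR).

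Asns (NM_012055, mm10 chr6:7675171-7693182) stood at 1.99, 1.23 and 5.12 CPM in Atg7KO non-tumour liver and at 7.42, 22.4 and 47.5 in Atg7KO tumours. In DKO it stood at 5.86, 3.69 and 4.74 CPM in non-tumour liver and at 106, 37.2 and 29.6 in tumours. Every tumour was above every non-tumour library, but the tumours spread widely, with Atg7KO tumour 1 lowest and DKO tumour 1 highest. The log2 fold change was 3.40 (SE 0.50, adjusted p = 0.0430 by edgeR), and 3.21 and 3.59 within the genotypes.

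Myo5c (NM_001081322, mm10 chr9:75232014-75305450) encodes an unconventional class V myosin of epithelial and glandular cells that moves secretory vesicles. Its levels were 2.99, 1.23 and 3.23 CPM in Atg7KO non-tumour liver against 13.1, 22.01 and 20.9 in tumours, and 1.66, 1.64 and 5.07 CPM in DKO non-tumour liver against 78.6, 21.4 and 18.7 in tumours. The groups did not overlap, and DKO tumour 1 was again the highest. The log2 fold change was 3.35 (SE 0.47, adjusted p = 0.0363 by edgeR).

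Socs2 (NM_007706, mm10 chr10:95411490-95416857), the growth hormone feedback inhibitor, passed the tissue test, with lower levels in the tumours of each genotype. Atg7KO non-tumour liver held 17.3, 9.92 and 15.3 CPM and Atg7KO tumours 7.25, 5.28 and 4.85. DKO non-tumour liver held 68.1, 62.1 and 58.8 CPM and DKO tumours 27.3, 28.3 and 33.5. The tissues were separate within each genotype, although DKO tumours were above Atg7KO non-tumour liver because the DKO level was higher in both tissues. The log2 fold change was -1.19 (SE 0.16, adjusted p = 0.0363 by edgeR), -1.29 in Atg7KO and -1.09 in DKO.

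Cxcl12 (NM_013655, mm10 chr6:117168535-117181368) encodes a chemokine made mainly by stromal cells, which signals through CXCR4 and can form a complex with Hmgb1. It stood at 446, 382 and 354 CPM in Atg7KO non-tumour liver and 128, 173 and 152 in Atg7KO tumours, and at 465, 255 and 294 CPM in DKO non-tumour liver and 142, 158 and 185 in DKO tumours. All 6 tumours were below all 6 non-tumour libraries, and the mean fell from 366 ± 82.3 to 157 ± 20.8 CPM (SD, n = 6). The log2 fold change was -1.22 (SE 0.18, adjusted p = 0.0430 by edgeR). In whole tissue, fewer cells of a type and less RNA per cell cannot be told apart, and this holds for every gene below.

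The adjusted p of these calls depended on single libraries. When each of the 12 libraries was left out in turn, edgeR's adjusted p stayed under 0.05 in 8 fits for Psat1, 5 for Socs2, 4 for Myo5c, 3 for Asns and 1 for Cxcl12. The highest values came without DKO non-tumour 1 for all 5 genes, at 0.0748 for Psat1, 0.135 for Socs2 and Myo5c, and 0.156 for Asns and Cxcl12. The log2 fold changes moved little, within 2.62 to 2.97 for Psat1, 3.03 to 3.76 for Asns, 2.87 to 3.59 for Myo5c, -1.27 to -1.10 for Socs2 and -1.30 to -1.10 for Cxcl12. DESeq2 called each of the 5 genes in all 12 of these fits.

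**Figure D2:**
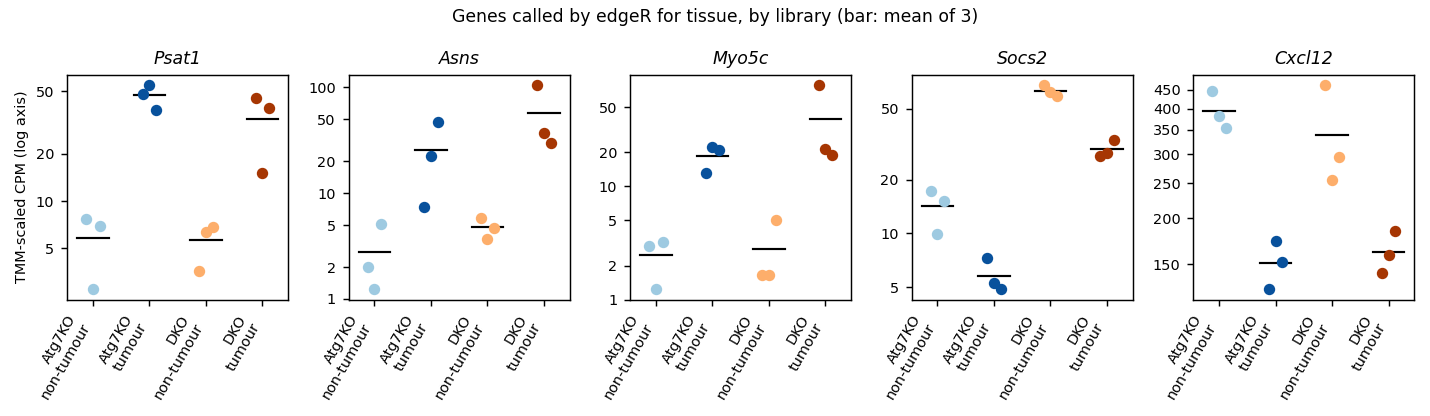
TMM-scaled CPM (log axis, a separate scale for each gene) in every library of the 4 groups for the 5 genes called by edgeR; points are libraries and bars are means of 3. Psat1, Asns and Myo5c are higher in all tumours, Socs2 is lower within each genotype on a higher DKO level, and Cxcl12 is lower in all tumours.

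Other genes of serine synthesis and amino acid supply were measured too, and edgeR passed none of those named here. Psph, which completes serine synthesis after Psat1, ranged from 8.02 to 13.4 CPM in non-tumour liver (median 9.64) and from 17.6 to 41.7 in tumours (median 26.4), with no overlap (log2 fold change 1.40, SE 0.23, adjusted p = 0.0529 by edgeR). Phgdh, which opens the pathway, had a log2 fold change of 1.78 (SE 0.41), and the mitochondrial one-carbon enzyme Mthfd2 had 1.37 (SE 0.31). Slc3a2, the heavy chain of several amino acid exchangers, had no overlap either, at 80.3 to 131 CPM (median 94.0) against 139 to 226 (median 182). The proline synthesis enzyme Aldh18a1 had a log2 fold change of 1.17 (SE 0.22). Psph and Aldh18a1 stand outside the list and were added after their values were seen. Shmt2, the mitochondrial serine hydroxymethyltransferase, went the other way at -0.54.

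Of the 27 genes of the ATF4 and ER stress list, 19 lay above 0 and 8 below, with a median log2 fold change of 0.38 (0.55 in Atg7KO, 0.30 in DKO), beside 0.01 over all genes tested. EdgeR passed Psat1 and Asns. DESeq2 called 8 higher (3.54% of all genes were) and 0 lower, namely Psat1, Asns, Slc3a2, Phgdh, Mthfd2, Ero1l, Slc7a11 and Trib3, and the count stayed between 7 and 10 when single libraries were left out. The genes of protein folding and quality control in the ER had values of both signs. Ero1l, an ER oxidase, Dnajb9, Hyou1, Hspa5 and Creld2 stood at 0.78, 0.39, 0.28, 0.19 and 0.16. Sdf2l1, Pdia4, Hsp90b1, Calr, Xbp1, Edem1 and Herpud1 stood at -0.18, -0.21, -0.23, -0.25, -0.30, -0.35 and -0.46. Atf4 itself was at 0.38, and Dnajc10, an ER disulfide reductase outside the list, ranged from 47.7 to 93.1 CPM in non-tumour liver and from 110 to 230 in tumours (log2 fold change 1.18, adjusted p = 0.0822 by edgeR).

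Antioxidant genes under NRF2, the factor released when p62 traps its inhibitor Keap1, had mostly positive values. Of 35 tested, 33 lay above 0, with a median of 0.65 (0.68 in Atg7KO, 0.65 in DKO). EdgeR passed 0 of them, and 7 had an edgeR adjusted p under 0.1 (1.79% of all genes were higher at that threshold). DESeq2 called 0 lower and 12 higher (3.54% of all genes were), a count of 8 to 16 without single libraries. Gclc, the rate-limiting enzyme of glutathione synthesis, ranged from 406 to 1268 CPM in non-tumour liver (median 878) and from 1362 to 2452 in tumours (median 2143), with no overlap (log2 fold change 1.21, SE 0.28). The glutathione reductase gene Gsr stood at 0.85 (SE 0.21), the thioredoxin reductase gene Txnrd1 at 0.82 (SE 0.21), and the glutathione transferase gene Gsta2 at 1.24, with its near-identical copy Gsta1, between which reads can be split, also called by DESeq2. Abcc4, an efflux pump for conjugates and bile acids, ranged from 57.8 to 253 CPM against 196 to 513, separate within each genotype but not across them. The classical target Nqo1 stood at 0.91 (SE 0.29, adjusted p = 0.134 by edgeR), and Sqstm1, which encodes p62, at 0.46 (adjusted p = 0.283 by edgeR).

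Targets of p53, the tumour suppressor that answers DNA damage, lay above 0 in 19 of 23 genes tested, with a median of 0.43 (0.66 in Atg7KO, 0.19 in DKO). EdgeR passed 0 and DESeq2 called 6 higher and 0 lower (5 to 8 higher without single libraries), beside 3.54% of all genes called higher. Tnfrsf10b, a death receptor, ranged from 3.23 to 9.18 CPM in non-tumour liver (median 4.93) and from 10.3 to 21.0 in tumours (median 17.1), with no overlap (log2 fold change 1.56, SE 0.25, adjusted p = 0.0529 by edgeR). The p53 inhibitor Mdm2 stood at 0.62 (SE 0.13), the cell death gene Pmaip1 at 2.02 (SE 0.44) and the cell cycle inhibitor Cdkn1a at 0.99 (SE 0.24). The further cell cycle inhibitors Cdkn2a and Cdkn2b, neighbours in the genome, stood at 1.64 (SE 0.38) and 1.54 (SE 0.34), both separate within each genotype and both at low levels, at most 3.87 CPM for Cdkn2a and 12.3 CPM for Cdkn2b. They belong to the oncogene and AP-1 list, where 24 of 35 genes lay above 0 and DESeq2 called 5 higher (3 without Atg7KO non-tumour 2, Atg7KO non-tumour 3, DKO non-tumour 1 or DKO tumour 1).

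Cell cycle genes were tested as markers of proliferation. All 27 genes of the G2/M list lay above 0, with a median of 0.45 (0.42 in Atg7KO, 0.50 in DKO), but edgeR passed 0 and DESeq2 called 0, or 9 without Atg7KO non-tumour 1. The proliferation marker Mki67 ranged from 13.8 to 58.8 CPM in non-tumour liver and from 31.5 to 44.8 in tumours. Its tumour effect was -0.04 in Atg7KO and 1.14 in DKO, a difference that the interaction test did not pass after adjustment by edgeR. In the S phase list 25 of 30 genes lay above 0, with a median of 0.25, and DESeq2 called 4, namely the chromatin factors Uhrf1 and Hells and the replication helicase subunits Mcm2 and Mcm6 (1 to 6 without single libraries, and 1 or 2 without any of 8 of them). Of all genes tested, DESeq2 called 3.54% higher.

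Genes of fetal liver and of liver tumours had the highest list median, 1.44 (1.19 in Atg7KO, 1.94 in DKO), with 18 of 23 above 0. EdgeR passed 0, and 7 had an edgeR adjusted p under 0.1 (1.79% of all genes were higher at that threshold). DESeq2 called 10 higher and 1 lower, beside 3.54% and 3.61% of all genes (8 to 11 higher without single libraries). Igf2bp3, a fetal RNA-binding protein, ranged from 0.238 to 3.91 CPM in non-tumour liver (median 0.555) and from 6.52 to 20.1 in tumours (median 8.41), with no overlap (log2 fold change 3.42, SE 0.55, adjusted p = 0.0529 by edgeR). Golm1, a Golgi membrane protein used as a serum marker of human liver cancer, ranged from 19.2 to 55.0 CPM against 67.4 to 121, again with no overlap. The classical markers were far more variable. Afp, alpha-fetoprotein, ranged from 0.873 to 27.1 CPM in non-tumour liver and from 13.9 to 2324 in tumours (log2 fold change 3.73, SE 1.08, adjusted p = 0.111 by edgeR), and Gpc3 from 2.86 to 43.4 against 2.89 to 745 (1.44, SE 1.43). The sign of Gpc3 differed between the genotypes, -1.04 in Atg7KO and 3.89 in DKO, and turned to -0.39 without DKO tumour 1. Krt19, a bile duct keratin in the same list, was the DESeq2 call that was lower, at -1.66; the count of lower calls was 0 without any of 8 libraries and 2 without Atg7KO tumour 2, DKO non-tumour 2 or DKO tumour 3.

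The pericentral Wnt target list had the lowest median of all, -1.41 (-1.46 in Atg7KO, -1.20 in DKO), with 22 of 24 genes below 0. EdgeR passed 0, 7 had an edgeR adjusted p under 0.1 (1.54% of all genes were lower at that threshold), and DESeq2 called 15 lower (3.61% of all genes were) and 0 higher, or 9 without Atg7KO non-tumour 2. In 11 of the 24 genes every tumour was below every non-tumour library within each genotype, beside 1.82% of all genes. The list's mean level was taken as log2 CPM minus each gene's mean over the 12 libraries. In DKO tumours 1, 2 and 3 it was -1.94, 0.15 and 0.10, against 0.63 to 0.92 in DKO non-tumour liver. In Atg7KO it was -1.215 to -0.80 in tumours against 0.48 to 1.39 in non-tumour liver. Axin2, a feedback inhibitor and direct readout of Wnt signalling, ranged from 5.46 to 13.9 CPM in non-tumour liver (median 10.2) and from 1.79 to 5.06 in tumours (median 3.33), with no overlap (log2 fold change -1.63, SE 0.31, adjusted p = 0.0822 by edgeR). Lect2, a secreted hepatocyte protein, ranged from 82.8 to 213 CPM against 7.39 to 55.9, also with no overlap. The pericentral enzymes Cyp2e1, which oxidises ethanol, and Glul, glutamine synthetase, had log2 fold changes of -3.26 (SE 0.71) and -1.62 (SE 0.36). The Wnt-dependent factors Sp5, Tbx3 and the receptor gene Lgr5 stood at -2.96, -1.96 and -1.96, and each was further from 0 in Atg7KO, at -4.20, -3.05 and -3.34, than in DKO, at -1.96, -0.89 and -0.66, differences that did not pass the interaction test after adjustment by edgeR. The Wnt ligand Wnt2 and the Wnt enhancer Rspo3, made by endothelial cells of the central vein, had negative values, with Wnt2 at -1.60 (SE 0.48) and Rspo3 at 5.25 to 8.61 CPM against 1.48 to 4.75 and no overlap (-1.39, SE 0.29). The endothelial list had a median of -0.33 and 6 of its 15 genes above 0, with Pecam1 at 0.39, Cdh5 at 0.33 and Kdr at 0.03. DESeq2 called Rspo3 and Wnt2 of it, or 1 gene without Atg7KO non-tumour 2, Atg7KO tumour 2, Atg7KO tumour 3 or DKO non-tumour 1, and the list's summed level was 352 to 598 CPM in non-tumour liver and 395 to 496 in tumours. The part of endothelial content in the Rspo3 and Wnt2 values was not tested.

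**Figure D3:**
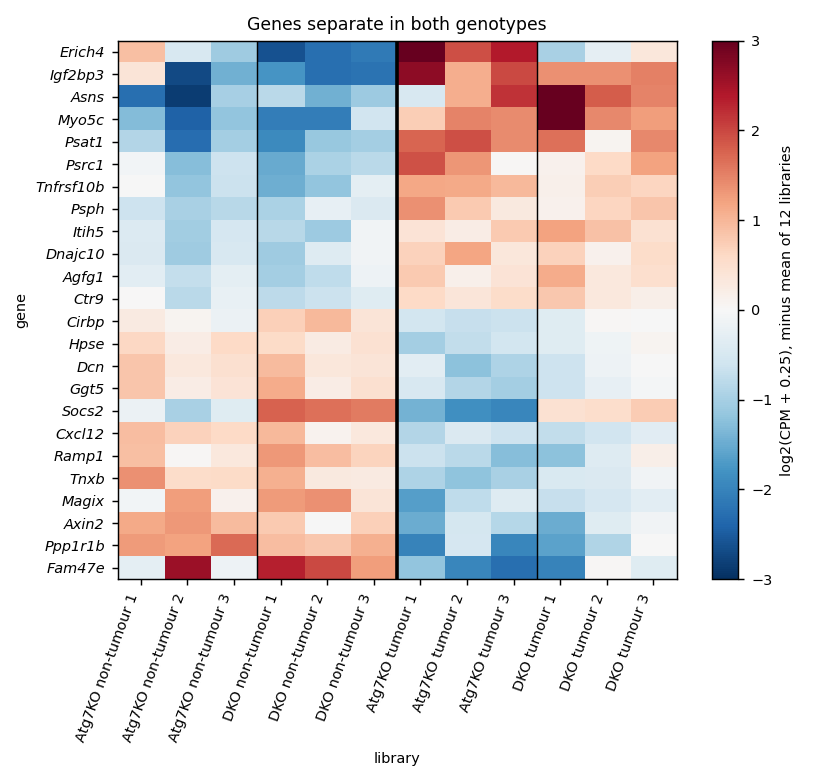
Level of 24 genes separate in both genotypes, the 5 edgeR calls and the 19 others of lowest p that met the naming rule (rows), in each of the 12 libraries (columns), as log2(CPM + 0.25) minus the gene's mean over the libraries, with colours ending at 3 above and below. Non-tumour libraries stand left of the thick line and tumours right of it; the upper 12 genes, from Erich4 to Ctr9, are higher in tumours and the lower 12, from Cirbp to Fam47e, are lower.

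Most genes of the detoxification and lipid lists had negative values, and edgeR passed none of them. In the drug metabolism list 32 of 36 genes lay below 0, with a median of -0.81 (-0.85 in Atg7KO, -0.78 in DKO). DESeq2 called 6 lower (3.61% of all genes were), or 2 without DKO non-tumour 1. The list's mean level was -1.74, -0.46 and -0.04 in DKO tumours 1, 2 and 3, and 0.15 to 0.93 in DKO non-tumour liver. Cyp4a14, a fatty acid hydroxylase under PPAR alpha, ranged from 58.7 to 810 CPM in non-tumour liver (median 147) and from 3.67 to 46.0 in tumours (median 25.1), with no overlap (log2 fold change -3.60, SE 0.82). Cyp2c37 stood at -2.74 (SE 0.75), in a family of close paralogues between which reads can be split. Fatty acid oxidation genes lay below 0 in 31 of 34 cases, with a median of -0.53 (-0.38 in Atg7KO, -0.77 in DKO). DESeq2 called 7 of them lower (3.61% of all genes were), 11 without Atg7KO non-tumour 1 and 1 without Atg7KO non-tumour 2 or DKO non-tumour 1. Acot3, a peroxisomal acyl-CoA thioesterase, stood at -2.78 (SE 0.67).

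Lipogenic genes lay below 0 in 21 of 24 cases (median -0.61, -1.03 in Atg7KO and -0.48 in DKO). Beside 3.61% of all genes called lower by DESeq2, 5 genes of this list were. That count was 1 without Atg7KO tumour 1, Atg7KO non-tumour 2 or DKO non-tumour 1, 2 without Atg7KO tumour 3 or DKO tumour 1, and 9 without DKO tumour 2. Thrsp, a thyroid hormone responsive regulator of lipogenesis, ranged from 67.1 to 394 CPM against 6.08 to 90.5 (log2 fold change -2.08, SE 0.55), and Scd1, the main liver stearoyl-CoA desaturase, stood at -1.39 (SE 0.47). Its paralogue Scd2 of the oncofetal list stood at 1.27 (SE 0.42). Cholesterol synthesis had a median of -0.26 with 19 of 24 below 0. DESeq2 called 3 lower (3.61% of all genes were), 1 without Atg7KO non-tumour 2 or DKO non-tumour 2 and 5 without Atg7KO tumour 2.

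In the bile acid list 15 of 21 genes lay below 0, with a median of -0.49 (-0.13 in Atg7KO, -0.80 in DKO). DESeq2 called 5 lower and 1 higher, beside 3.61% and 3.54% of all genes. The uptake transporters Slc10a1 and Slco1b2 stood at -2.04 (SE 0.45) and -1.52 (SE 0.39), while the efflux pump Abcc4 was the call that was higher. Cyp27a1, which opens the alternative route of bile acid synthesis, ranged from 316 to 553 CPM in non-tumour liver (median 445) and from 142 to 294 in tumours (median 226), with no overlap (log2 fold change -0.94, SE 0.22). Periportal genes had a median of -0.61 (-0.42 in Atg7KO, -0.79 in DKO) with 16 of 21 below 0. Among them was Pck1, the gluconeogenic enzyme, at 1387 to 3976 CPM against 273 to 1754 (-1.57, SE 0.43). Gldc, the glycine cleavage enzyme, was the DESeq2 call of that list that was higher, at 0.96 (SE 0.23). DESeq2 called 4 periportal genes lower, 1 without Atg7KO non-tumour 2 and 2 without DKO non-tumour 1, DKO non-tumour 2 or DKO tumour 3. Hepatocyte markers as a list had a median of -0.48 (-0.37 in Atg7KO, -0.65 in DKO) with 12 of 14 below 0, Alb standing at -0.52 (adjusted p = 0.434 by edgeR). The acute phase list had a median of -0.55 (-0.29 in Atg7KO, -0.81 in DKO) with 19 of 24 below 0. The sex-biased list had -1.16 (-1.39 in Atg7KO, -0.90 in DKO) with 19 of 29 below 0. DESeq2 called 2 genes of each list lower, beside 3.61% of all genes. The count was 0 to 6 for the first and 1 to 6 for the second without single libraries. The mean level of the sex-biased list was furthest from 0 in Atg7KO non-tumour 2, at 2.29, and DKO tumour 1, at -1.84.

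Besides Socs2, genes of the circulating Igf1 complex had negative values without passing edgeR. Igf1, the main liver growth factor under growth hormone, ranged from 124 to 620 CPM in non-tumour liver (median 402) and from 39.3 to 240 in tumours (median 127), overlapping, with a log2 fold change of -1.56 (SE 0.33, adjusted p = 0.0822 by edgeR) that was -1.61 in Atg7KO and -1.50 in DKO. Igfals, which stabilises Igf1 in serum, stood at -1.08 (SE 0.27), and the receptor genes Fgfr3, Prlr and Lepr at -1.22, -1.39 and -1.17. The growth hormone receptor gene Ghr stood at -0.57. Mst1r, which encodes the receptor of macrophage-stimulating protein, was the DESeq2 call that was higher, at 2.18 (SE 0.56). Over the growth factor receptor and IGF list 22 of 32 genes lay below 0 with a median of -0.16. DESeq2 called 6 lower and 1 higher, beside 3.61% and 3.54% of all genes (5 to 7 lower without single libraries). Igf2, the fetal counterpart of Igf1, ranged from 3.02 to 116 CPM in non-tumour liver and from 10.5 to 3373 in tumours (log2 fold change 5.74, SE 1.71, adjusted p = 0.117 by edgeR).

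Several of the genes named by lowest p among those lower in tumours are made by stromal cells. Genes named in this way were drawn from those already separate in both genotypes, so that separation is not a result. Dcn, the proteoglycan decorin, ranged from 278 to 430 CPM in non-tumour liver (median 300.4) and from 94.6 to 220.3 in tumours (median 162), with no overlap (log2 fold change -1.08, SE 0.21, adjusted p = 0.0822 by edgeR). Tnxb, the matrix protein tenascin-X, ranged from 10.2 to 22.2 CPM against 3.52 to 7.78 (-1.45, SE 0.26, adjusted p = 0.0727 by edgeR). Of 15 hepatic stellate cell markers, all measured, 12 lay below 0, with a median of -0.62 (-0.95 in Atg7KO, -0.21 in DKO). Their summed level was 578 to 1425 CPM in non-tumour liver and 428 to 1116 in tumours, and by group 797 to 1425 against 428 to 592.5 in Atg7KO and 578 to 1107 against 550.2 to 1116 in DKO. The part of stellate cell content in the values of Cxcl12, Dcn and Tnxb was not tested. DESeq2 called 5 of the markers lower (3.61% of all genes were), Dcn, Colec11, Des, Lrat and Pdgfra. It called 1 without Atg7KO non-tumour 1, 2 without Atg7KO tumour 3 or DKO non-tumour 1, and 3 without Atg7KO non-tumour 2 or Atg7KO tumour 2. Des, the intermediate filament desmin, ranged from 7.02 to 14.7 CPM against 4.13 to 7.002, with no overlap. Pdgfra stood at -2.15 in Atg7KO and -0.12 in DKO, while the collagen genes Col1a1 and Col3a1 stood at 0.33 and 0.29 over both.

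Markers of immune cells lay mostly below 0 with no call by edgeR. The T and NK cell list had 13 of 14 below 0 (median -0.36), the B and plasma cell list 10 of 10 (-0.81) and the neutrophil list 8 of 9 (-1.26), and DESeq2 called 0 in each, or 1 B and plasma cell gene without Atg7KO non-tumour 1 or Atg7KO tumour 3 and 2 without DKO non-tumour 3. Macrophage markers had a median of -0.19, and DESeq2 called Marco, a scavenger receptor of resident macrophages, lower at -2.27. DESeq2 made no such call without Atg7KO non-tumour 2, Atg7KO tumour 2 or Atg7KO tumour 3. Cholangiocyte markers had a median of -0.86 (-1.67 in Atg7KO, -0.28 in DKO) with 9 of 14 below 0. DESeq2 called Krt19, Cldn7 and Muc1 lower and Tspan8 higher, beside 3.61% and 3.54% of all genes, and 5 lower without DKO non-tumour 2. The summed level of the cholangiocyte markers ranged from 423 to 1377 CPM in non-tumour liver and from 604 to 6624 in tumours. By group it was 542 to 1377 against 604 to 6624 in Atg7KO, and 423 to 1312 against 672 to 1287 in DKO. A sum follows its most abundant genes. The list's mean level, in which genes count equally, was -0.41 to 1.08 in Atg7KO non-tumour liver and -1.52 to 0.05 in Atg7KO tumours. In DKO it was -0.49 to 0.68 and -0.11 to 0.46. The globin genes Hba-a1, Hba-a2, Hbb-bs and Hbb-bt were listed at 0 in every library, and of the other erythroid markers 4 were tested (median -0.07), DESeq2 calling Klf1 lower at -1.59 except without Atg7KO non-tumour 2 or DKO non-tumour 1.

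**Figure D4:**
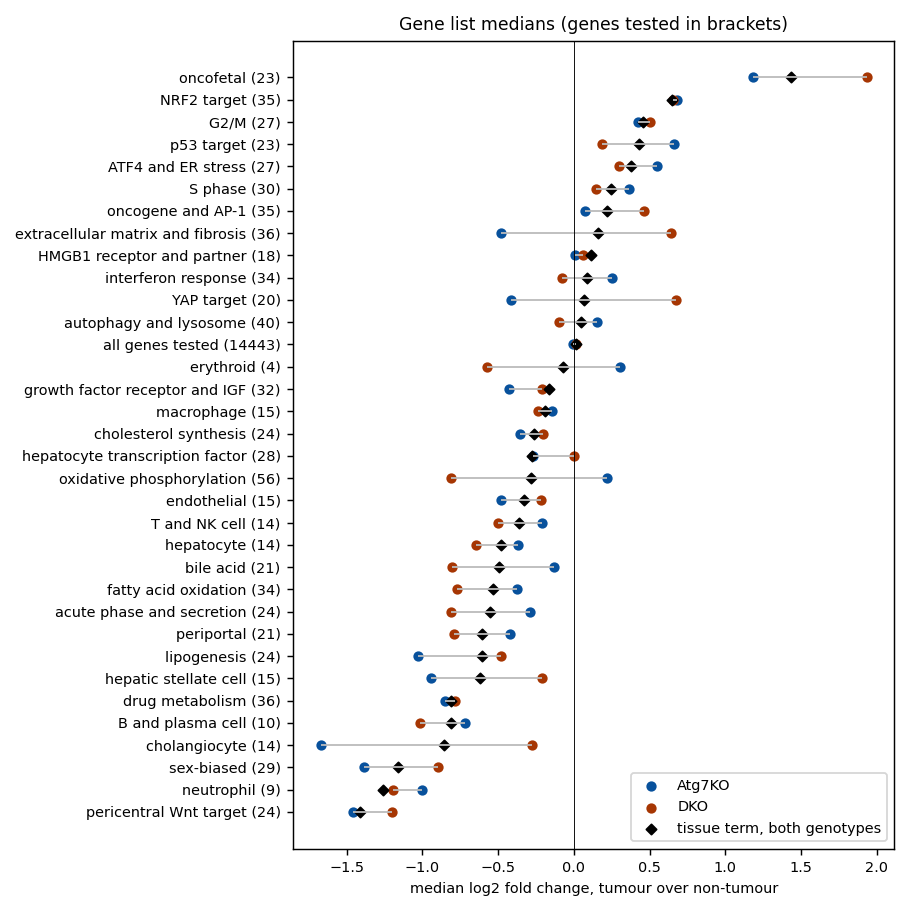
Median log2 fold change, tumour over non-tumour, of the 33 gene lists and of all genes tested (vertical axis, genes tested in brackets), for Atg7KO, DKO and the tissue term over both. The genotype medians lie close together for the NRF2, G2/M, drug metabolism and pericentral lists and on opposite sides of 0 for oxidative phosphorylation, extracellular matrix and YAP targets. Medians do not show the spread between libraries, which was wide among DKO tumours for the drug metabolism and pericentral lists.

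Some lists had little in common between the genotypes, so that their tissue term averages unlike values. Matrix and fibrosis genes had a median of 0.16, from -0.48 in Atg7KO and 0.64 in DKO. Targets of YAP, the growth regulator of the Hippo pathway, had a median of 0.07, from -0.41 and 0.68, and 3 of 20 genes had the same sign in both; the median turned below 0, at -0.18 to -0.004, with limma voom, with a replicate block and without DKO tumour 1 or any DKO non-tumour library. For these lists the difference between genotypes was not tested as a list, and the interaction test called 0 of all genes by edgeR. The matrix cross-linking enzyme Loxl2 was higher in both, at 1.83 in Atg7KO and 0.97 in DKO and separate in each. Ptpn14, a Hippo pathway phosphatase, stood at 1.24 and 2.22. Tgfbi, an adhesion protein induced by TGF-beta, was lower in both, at -1.08 and -0.54. Interferon-responsive genes had a median of 0.09, which turned to -0.01 and -0.02 without Atg7KO tumour 1 and Atg7KO non-tumour 2, and the hepatocyte transcription factor list -0.28, with Hnf4a at 0.10, Cebpa at -0.24 and 1 DESeq2 call, Tbx3. The HMGB1 receptor and partner list had a median of 0.11, between -0.02 and -0.004 without Atg7KO non-tumour 2, Atg7KO tumour 3 or DKO tumour 2, and Cxcl12 as its call.

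The remaining genes of lowest p were drawn from those already separate in both genotypes, so that separation is not a result. Among them, Itih5, a hyaluronan-associated serum protein family member, ranged from 25.3 to 50.3 CPM in non-tumour liver and from 62.8 to 125 in tumours, with no overlap (log2 fold change 1.31, SE 0.21, adjusted p = 0.0529 by edgeR). Ctr9, a subunit of the Paf1 elongation complex, ranged from 37.5 to 65.9 CPM against 74.3 to 115, and Psrc1, a spindle protein, from 0.934 to 2.94 against 3.199 to 12.4, both without overlap. Agfg1, an ARF GTPase-activating protein family member, stood at 1.10 (SE 0.20), and the poorly characterised Erich4 at 3.61 (SE 0.62), at 0 to 2.59 CPM against 0.524 to 28.3. Ppp1r1b, an inhibitor of protein phosphatase 1, ranged from 6.83 to 12.9 CPM in non-tumour liver and from 0.768 to 3.78 in tumours, with no overlap (-2.31, SE 0.40, adjusted p = 0.0727 by edgeR). Hpse, heparanase, and Ggt5, a gamma-glutamyltransferase, stood at -0.93 (SE 0.18) and -1.18 (SE 0.23), both without overlap. Cirbp, a cold-inducible RNA-binding protein, stood at -0.77, Ramp1, a co-receptor of the calcitonin receptor family, at -1.42, and Magix and Fam47e at -1.54 and -3.04.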

How the data were processed

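Total RNA of 12 mouse liver libraries was sequenced, 3 in each of 4 groups. The values the authors deposited are raw counts of reads for 24421 RefSeq genes, 4509 of them without a read, plus a gene length in bases. The submitters' processing notes name STAR 2.5.3a, featureCounts of Subread 1.5.3, edgeR 3.20.8 and the build mm10, without roles. Whether counting used strand is not given in the sources used here, so overlapping genes cannot be told apart (among genes described above, Srebf1, Tm7sf2, Ccnd3 and Igf2 share exon bases with another gene that has reads). Spreadsheet dates in 27 gene names were restored from their RefSeq identifiers.

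Counts were scaled by TMM and tested with edgeR 4.0.16 (robust quasi-likelihood test, R 4.3.3, genotype and tissue as terms) after edgeR's expression filter with a minimum count of 10, which left 14443 genes. P-values were adjusted by Benjamini-Hochberg over all of them, and a call is an adjusted p under 0.05. The common biological coefficient of variation was 0.380. Separate contrasts came from a fit with 1 term per group. Alternatives were RLE factors, no filter, DESeq2 1.42.0 (no adjusted p for 699 genes), limma 3.58.1 voom, a gene length offset, a replicate block, a 4-group average and leaving out each library. No pair of libraries was a duplicate by correlation (highest rho 0.986 over genes). The edgeR and DESeq2 fits were also run on simulated counts with seeded tissue effects. The outcome is not given here and does not settle which tool is right on these data. CPM values do not correct for gene length and are compared only within a gene.

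Named genes were Atg7, Hmgb1, the edgeR calls with the largest changes, up to 12 in each direction, that reached 5 CPM and had the same direction and separate libraries in both genotypes (filled up by lowest p), and up to 3 called members of each of 33 lists, or the member of lowest p. Genes filled up by lowest p had to be separate in both genotypes, so that separation is not a result for them. Few list members passed edgeR, so DESeq2 calls and other genes named beyond this rule were chosen after their values were seen. The comparison, the lists and the genes in them were chosen with earlier results of these data known, and lists are described by counts and medians with no test.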

Additional observations from a re-analysis of the deposited data

Results flagged for a closer look

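Oxidative phosphorylation and autophagy genes were flagged because their list medians had opposite signs in the genotypes. The matrix and YAP lists above also had medians of opposite sign, further apart than those of the autophagy list. The 56 nuclear genes of oxidative phosphorylation had a median log2 fold change, tumour over non-tumour, of 0.22 in Atg7KO and -0.81 in DKO. The mean level of this list was higher in all Atg7KO tumours than in all Atg7KO non-tumour libraries, and lower in all DKO tumours than in all DKO non-tumour libraries. The 40 autophagy and lysosome genes had medians of 0.15 in Atg7KO and -0.10 in DKO, with the same separation of libraries. In Atg7KO the margins were narrow. The lowest tumour and highest non-tumour levels were 0.043 and 0.022 for oxidative phosphorylation, and -0.026 and -0.039 for autophagy. The difference between the genotypes was not tested for either list, and the interaction test over all genes called 0 by edgeR. The tissue term of both lists, -0.28 and 0.05, averages these unlike values. In the first list DESeq2 called Sdha, a succinate dehydrogenase subunit, lower at -0.52 (3 genes without Atg7KO non-tumour 3, and 0 without any of 8 other libraries), and in the second it called 0 genes, or 1 or 2 without any of 6 libraries.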

How the results depend on the processing

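The counts of genes called by edgeR moved with most settings, while the direction of the 5 calls held in all of them. Genes higher and lower in tumours numbered 8 and 2 with RLE factors, 11 and 3 without the low-count filter, 11 and 3 with limma voom, 6 and 4 with a gene length offset, 1 and 0 as an average of 4 groups, 258 and 223 at an adjusted p under 0.1 and 512 and 521 with DESeq2. Those separate in both genotypes numbered 8 and 2, 11 and 3, 10 and 3, 6 and 3, 1 and 0, and 206 and 208 with DESeq2. All 5 calls were kept in each of these settings except the 4-group average, which kept 1. Without single libraries, edgeR called 0 to 11 genes higher and 0 to 14 lower, with the same ranges for separate genes. It called 0 without Atg7KO tumour 2, Atg7KO non-tumour 3, DKO non-tumour 1 or DKO non-tumour 2, and 25 without DKO tumour 3. DESeq2 called 255 to 596 higher and 233 to 559 lower. The log2 fold change of Gpc3 turned from 1.44 to -0.34 with limma voom and -0.39 without DKO tumour 1, its range without single libraries being -0.39 to 2.23; no other named gene changed sign. The list medians of autophagy, YAP, interferon, HMGB1 partner and erythroid genes, all near 0, changed sign under some settings. The cause was not tested.

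Whether libraries of the same replicate number pair was not settled by these values. Same-numbered tumour and non-tumour libraries deviated together with correlations of 0.016 to 0.333, over 0.1 in 2 of 6 pairs, beside -0.246 to 0.161 for the 12 other pairs. The best correlation was with the same number for 4 of 6 non-tumour and 3 of 6 tumour libraries. The main model treats the libraries as unpaired. With a replicate block edgeR called 8 genes higher and 4 lower, 7 and 1 of them separate in both genotypes, and 3 of the 5 calls were kept, the others being Myo5c (adjusted p = 0.0645) and Cxcl12 (adjusted p = 0.0893). DESeq2 with the block called 434 higher and 522 lower. The limits of these data are 3 libraries a group and a wide spread, with median SDs of log2 CPM of 0.29 to 0.351 within groups. Genes at low levels, such as Cdkn2a, rest on fewer reads than genes at higher levels.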

Other observations

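Medians of the tumour effect were computed by chromosome, as a description with no test. The median log2 fold change of the genes tested was 0.20 on chromosome 18 (369 genes), 0.16 on chromosome 1 (862 genes), 0.14 on chromosome 17 (724 genes) and 0.12 on chromosome 15 (578 genes), and -0.11 on chromosome 11 (1208 genes) and -0.10 on chromosome 4 (914 genes), beside 0.01 over all genes. DESeq2 called 3.54% of all genes higher and 3.61% lower. On chromosome 1 it called 55 higher (6.38%) and 14 lower (1.62%), and on chromosome 15, 38 (6.57%) and 10 (1.73%). On chromosome 18 it called 25 higher (6.775%) and 7 lower (1.90%), and on chromosome 17, 26 (3.59%) and 13 (1.80%). On chromosome 11 it called 19 higher (1.57%) and 52 lower (4.30%), and on chromosome 4, 19 (2.08%) and 47 (5.14%). The medians on chromosomes 1, 15 and 18 were above 0 in each genotype, at 0.15 and 0.13, 0.12 and 0.10, and 0.20 and 0.21 in Atg7KO and DKO. So was the median on chromosome 17, at 0.215 in Atg7KO and 0.04 in DKO. Across genes, the tumour effect correlated with gene length at rho = 0.193. No cause was tested.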
